A study of Homo sapiens with 21 samples.

Results

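H3K4me3 peaks were compared between RS4;11 cells starved of asparagine with added iron (-Asn+Fe, 3 libraries) and cells in complete medium (+Asn, 3 libraries), so 6 of the 21 libraries of the series were compared over all 19279 merged peak regions. RS4;11 is an established line grown from a B-cell precursor leukaemia, and it carries a KMT2A-AFF1 fusion. All cells were cultured for 24 h. The +Asn cells were in complete medium, and the -Asn+Fe cells lacked asparagine and received ferric nitrate at 10 µM together with hinokitiol, an iron ionophore, at 0.75 µM. The +Asn cells had neither the iron nor the hinokitiol, so in this comparison the loss of asparagine, the iron and the hinokitiol cannot be told apart. The series also holds 3 H3K4me3 libraries from asparagine-free medium alone (-Asn), 9 RNA libraries from the same 3 media and 3 input libraries that have no values of their own here. Whether the 3 libraries of a medium are separate cultures is not stated in the labels, so the p-values below rest on a between-library spread that could be technical.

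H3K4me3 is the trimethyl mark on lysine 4 of histone H3. Complexes of the KMT2 and SETD1 families write it around the starts of active genes, KDM5 enzymes of the JmjC family remove it with iron and 2-oxoglutarate as cofactors, and the breadth of a marked region often goes with the activity and cell-type role of the gene. Asparagine is made from aspartate by asparagine synthetase, an enzyme that leukaemic lymphoblasts often lack, and its absence is sensed by the kinase GCN2, which raises translation of the transcription factor ATF4.

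The deposited peak table gives positions only, with no height or read count, so 3 measures were available: whether a library had a peak in a region, how many bases its peaks covered there (the width), and where their outer edges lay. The depth of the ChIP libraries is not given in the sources used here, and the number and width of called peaks move with depth and enrichment. The cell-type label fitted the marks: 23 of 29 precursor B-cell genes had a peak region at their start, 1 of them in -Asn libraries only, against 1 of 8 T-cell genes, 1 of 8 myeloid genes, 0 of 6 erythroid genes and 1 of 5 NK-cell genes. Every value below is from hg38, and ± values are SDs over 3 libraries (n = 3).

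For 5 promoters whose widths differed between the media, the 250 bases before the start are printed, because they hold motifs of factors that act in amino acid stress, oxidant stress or the cell cycle. The sequences are from RefSeq (GRCh38.p14), 5′ to 3′ on the gene's strand, and capitals mark the matched motif. Each promoter was marked only for the motifs chosen for its gene, so matches to the others stand in lower case. CHAC1 (chr15:40953221-40953470, + strand) and HERPUD1 (chr16:56931892-56932141, + strand) hold the C/EBP-ATF composite TGATGNAA on the other strand. PPP1R15A (chr19:48872171-48872420, + strand) holds the cAMP response element TGACGTCA. ME1 (chr6:83431052-83431301, - strand) holds the core of the antioxidant response element, TGACNNNGC. The ME1 match also contains TGACTCA, a match to the AP-1 site TGANTCA, and PPP1R15A holds an unmarked match to the antioxidant core, TGACGTTGC. E2F2 (chr1:23531234-23531483, - strand) holds 3 matches to the E2F motif TTTNNCGC, of which the last 2 overlap. Other promoters at called regions held no match. The composite and the cAMP response element were absent at TRIB3, WARS1, DDIT3, SESN2, PSAT1, CEBPB and SLC3A2. The antioxidant core was absent at NQO1, the E2F motif at TK1, ORC1 and RRM1, and the sterol element TCACNCCAC at HMGCS1, MSMO1, IDI1 and CYP51A1. GCLM held the antioxidant core, but its region was not called.
CHAC1: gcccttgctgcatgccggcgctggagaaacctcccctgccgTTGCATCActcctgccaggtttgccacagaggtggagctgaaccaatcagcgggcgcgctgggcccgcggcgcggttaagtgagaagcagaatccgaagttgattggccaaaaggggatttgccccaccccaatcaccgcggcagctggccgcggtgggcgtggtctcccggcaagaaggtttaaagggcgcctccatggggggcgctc
HERPUD1: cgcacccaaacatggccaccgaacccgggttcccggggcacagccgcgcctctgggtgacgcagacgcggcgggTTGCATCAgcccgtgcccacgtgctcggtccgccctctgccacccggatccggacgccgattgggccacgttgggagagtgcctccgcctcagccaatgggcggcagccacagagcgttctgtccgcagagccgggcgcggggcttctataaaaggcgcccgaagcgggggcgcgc
PPP1R15A: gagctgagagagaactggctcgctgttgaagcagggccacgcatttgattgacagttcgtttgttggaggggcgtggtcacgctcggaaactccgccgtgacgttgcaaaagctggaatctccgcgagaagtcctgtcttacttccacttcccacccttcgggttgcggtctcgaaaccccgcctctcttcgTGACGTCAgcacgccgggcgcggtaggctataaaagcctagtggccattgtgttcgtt
ME1: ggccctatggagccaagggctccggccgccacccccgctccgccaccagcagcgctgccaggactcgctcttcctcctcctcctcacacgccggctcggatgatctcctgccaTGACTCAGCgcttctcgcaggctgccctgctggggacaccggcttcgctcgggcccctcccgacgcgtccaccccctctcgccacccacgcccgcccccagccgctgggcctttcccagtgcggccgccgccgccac
E2F2: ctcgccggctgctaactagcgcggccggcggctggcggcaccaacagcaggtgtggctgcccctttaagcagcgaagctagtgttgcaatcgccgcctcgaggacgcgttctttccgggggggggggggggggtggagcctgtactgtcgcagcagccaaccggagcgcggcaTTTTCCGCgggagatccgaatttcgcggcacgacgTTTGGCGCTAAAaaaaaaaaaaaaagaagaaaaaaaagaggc

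Each motif was searched on both strands of all 22199 coding promoter windows of the RefSeq table, and its share there is the background. The shares that follow are over all windows, over the 12503 windows at tested regions, over the 1141 at wider regions, over the 205 of them at regions at least 1.5-fold wider and over the 233 at narrower regions, in that order. They were 2.35%, 1.18%, 1.84%, 3.9% and 1.72% for the composite, and 11.2%, 11.8%, 11.8%, 13.7% and 11.6% for the antioxidant element core. For the cAMP response element they were 2.01%, 2.69%, 2.89%, 3.41% and 1.72%, and for the E2F motif 7.21%, 9.42%, 6.75%, 4.88% and 10.7%. For the sterol element TCACNCCAC they were 0.883%, 0.848%, 1.23%, 2.44% and 0.429%, and for the AP-1 site TGANTCA 5.36%, 3.19%, 5.35%, 5.85% and 2.15%. These shares rest on few windows, 8 with the composite and 10 with the E2F motif among the 205, and a match describes letters only.

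More regions carried a peak in -Asn+Fe than in +Asn. The +Asn libraries had peaks in 15141, 15230 and 14741 regions and the -Asn+Fe libraries in 17206, 15891 and 16384. All 3 -Asn+Fe libraries lay above all 3 +Asn libraries, with means of 16494 ± 664 and 15037 ± 260 (9.68% more, exact two-sided permutation p = 0.1, the smallest that 3 against 3 libraries allow). The covered length was 25.98, 26.17 and 25.09 Mb in +Asn and 28.97, 26.79 and 27.53 Mb in -Asn+Fe, again without overlap (27.8 ± 1.10 against 25.7 ± 0.577 Mb, exact permutation p = 0.1). -Asn+Fe library 1 was the highest in both, and 436 of its regions were called in no other library. The -Asn libraries had peaks in 15554 to 17448 regions, a range that holds all 3 -Asn+Fe libraries and lies above all 3 +Asn libraries. A region was split into several peaks in 5.61% ± 0.788 of the regions of -Asn+Fe libraries and 5.88% ± 0.277 of those of +Asn libraries (exact permutation p = 0.9).

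**Figure D1:**
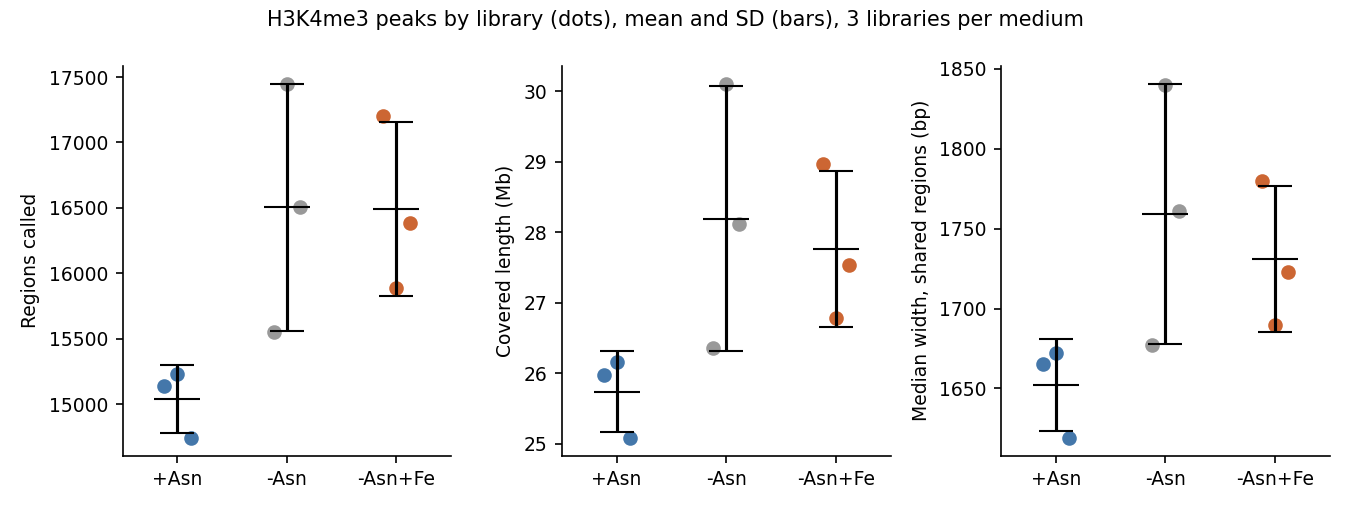
H3K4me3 regions called, covered length in Mb and median width in bp of the 13883 regions called in all 9 libraries, for each library (dots) by medium, with the mean and SD of 3 libraries (bars); the y axes do not start at 0. All 3 -Asn+Fe libraries lie above all 3 +Asn libraries in each panel, and the -Asn libraries spread most.

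Of the 19279 regions, 13968 had a peak in all 6 libraries and 893 had none in any of them. A region was counted as gained where all 3 -Asn+Fe libraries and 0 of 3 +Asn libraries had a peak, and as lost in the reverse case. Gained regions numbered 617 (3.20% of all regions) and lost regions 49 (0.254%). Both kinds were short, with a median width of 418 bp among the gained and 410.7 bp among the lost. Gained regions were mostly outside promoters: 108 lay within 1 kb of a gene's start, 119 in exons, 208 in introns and 182 between genes, so that 17.5% were promoter regions, against 56.8% of all regions. Among the -Asn libraries, which the definition does not use, 313 of the gained regions had a peak in all 3 and 39 in none, and of the lost regions 4 had a peak in all 3 and 29 in none. Leaving out -Asn+Fe library 2 raised the gained regions to 981, and leaving out 1 library raised the lost regions to 77, 80 and 108 without +Asn libraries 1, 2 and 3 and to 101 without -Asn+Fe library 1.

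The widest gained promoter region was at C15orf62 (chr15:40769022-40771028), with 1735, 1474 and 1364 bp in the -Asn+Fe libraries and no peak in +Asn. Next came ENSG00000273428, a non-coding gene (1136 ± 76.4 bp), CCDC154 (1097 ± 160 bp), UCN2, which encodes the peptide urocortin 2 (1008 ± 328 bp), KASH5, a meiotic linker of the nuclear envelope (998.3 ± 153 bp), and SPNS3, a member of the spinster transporter family (992.7 ± 223 bp). RNA rose at 4 of these 6 genes, C15orf62, CCDC154, UCN2 and SPNS3. The regions of C15orf62, CCDC154 and UCN2 also lie over DNAJC17, CLCN7 and COL7A1. C15orf62 lies within DNAJC17 on the other strand, and the strand setting of the counting is not known here, so their reads could be shared. CCDC154 and UCN2 lie just downstream of CLCN7 and COL7A1 on the same strand, without overlap. Whether reads running on from those neighbours were counted was not tested. SPNS3 RNA was 4.50, 2.45 and 3.31 CPM in +Asn and 46.3, 55.2 and 48.6 CPM in -Asn+Fe, and CCDC154 RNA 1.15, 0.864 and 1.01 against 6.91, 9.26 and 8.49 CPM. In both genes the groups lay far apart, and edgeR called them higher, with log2 changes of 3.86 and 3.01 (adjusted p = 2.09e-12 and 1.66e-10). Over all gained promoter regions, 53 of the 78 genes with tested RNA were higher and 6 lower, where edgeR called 32.9% of all 17939 tested genes higher and 31.9% lower (64.7% in all). Of the 53, 44 were at least 2-fold higher, as were 17.3% of all tested genes, and the median log2 RNA change of the 78 was 1.31. Such changes in bulk RNA or chromatin cannot tell fewer cells of a type from less RNA or mark per cell.

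Outside promoters the widest gained regions lay in the bodies of genes. GOLIM4, a Golgi membrane protein, had an exonic region of 2605, 2376 and 2411 bp in -Asn+Fe. MYH9, non-muscle myosin, followed with 2074 ± 236 bp, ARL15 with 2001 ± 318 bp in an intron, and TMBIM6, an inhibitor of cell death in the endoplasmic reticulum, with 1786 ± 150 bp. HERPUD1, whose product acts in degradation of misfolded endoplasmic reticulum proteins, gained a second region of 2202, 1319 and 1772 bp that begins just beyond the promoter region described below. TRAF3IP3 gained 1745 ± 363 bp. The RNA of host genes of gained regions went both ways, with 105 of 246 higher and 87 lower, where 32.9% of all tested genes were higher and 31.9% lower. Among the 36 host genes of lost regions, 9 were higher and 23 lower, against the same shares. The widest lost region, at chr2:55933237-55934469 between genes, had 1233, 1053 and 975 bp in +Asn and no peak in -Asn+Fe. The others named by width lay in RAB17, FAM3C, ARID5B, JADE2 and MAN1C1 (628.3 to 879.3 bp in +Asn). The 2 lost promoter regions were at the non-coding gene ENSG00000226426 (507.7 ± 216 bp) and at AARS1, the alanyl-tRNA synthetase, with DDX19B (270, 328 and 332 bp). The AARS1 region lies within 1 kb of the AARS1 start, in the body of DDX19B. AARS1 RNA was 2.26-fold higher in -Asn+Fe, and DDX19B RNA was 0.745-fold.

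Width was tested with limma over the 13883 regions called in all 9 libraries. It called 1610 regions wider in -Asn+Fe (11.6%) and 255 narrower (1.84%), at an adjusted p under 0.05. The median width change of all tested regions was 0.07 on the log2 scale. When each library was centred on its own median width, the calls were 1241 wider and 1050 narrower, so the excess of wider over narrower calls depended on this scaling, and 1218 of the 1610 and all 255 of the narrower calls were among them. The wider regions had a median fold of 1.32, with 527 at least 1.5-fold and 192 at least 2-fold wider. The narrower had a median fold of 0.814, with 36 at least 1.5-fold and 14 at least 2-fold narrower. The widths of the 3 + 3 libraries did not overlap in 1601 of the wider and 253 of the narrower regions, where 30.1% of all tested regions were apart in the wider direction and 7.22% in the narrower. Leaving out 1 library lowered the wider calls to 898 without +Asn library 3, 745 without -Asn+Fe library 1 and 964 without -Asn+Fe library 3. The narrower calls fell to 136, 120 and 152 without +Asn libraries 1, 2 and 3, and to 128 and 131 without -Asn+Fe libraries 2 and 3.

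The comparison of -Asn with +Asn, which shares the +Asn libraries, called 2043 regions wider and 198 narrower. Between -Asn+Fe and -Asn, limma called 0 regions wider and 0 narrower, and 1046 of 13883 had an unadjusted p under 0.05. A difference between -Asn+Fe and -Asn that misses the threshold in this design does not show that the widths were alike.

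**Figure D2:**
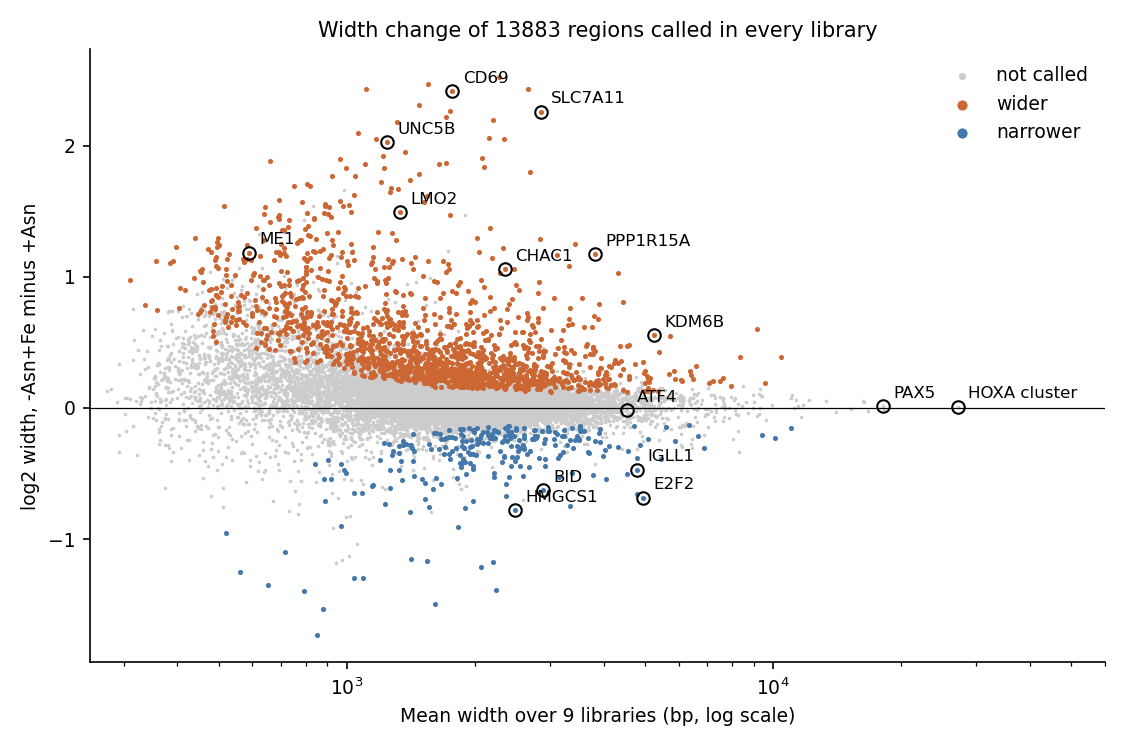
Change in width (log2, -Asn+Fe minus +Asn, y axis) against mean width over 9 libraries (bp, log scale, x axis) of the 13883 regions called in every library, with regions called wider in orange and narrower in blue. SLC7A11 and CD69 lie above 2 on the log2 scale, HMGCS1 and E2F2 below -0.6, and the broad PAX5 and HOXA regions lie near 0.

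Short regions and regions away from starts were called wider more often. In the fifth of the regions with the smallest mean width 15.1% were wider and 0.648% narrower, and in the fifth with the largest 10.4% and 3.28%. By place, 9.94% of promoter regions, 13.5% of exonic, 19.7% of intronic and 18.3% of intergenic regions were wider, and 1.86%, 2.0%, 1.99% and 1.15% narrower. Promoter regions with starts of non-coding RNA genes only were wider in 16.3%, and those with coding starts on both strands in 6.79%. The broadest regions kept close to the same width. The HOXA region, from HOXA3 to HOXA10-AS and the broadest of all, covered 27043, 27008 and 26919 bp in +Asn and 27111, 27063 and 27271 bp in -Asn+Fe. The PAX5 region covered 18035, 18350 and 17843 bp against 18138, 18033 and 18553 bp. The other broad regions, at MEF2C-AS1, MEIS1, NR3C1, CDK6, CDKN1B and RNF220, had log2 changes between -0.03 and 0.05, and limma called none of these 8 (adjusted p from 0.452 to 0.934).

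Among promoter regions named by the size of their change, the most widened was that of the non-coding gene ENSG00000262172 in TBC1D16 (chr17:79991720-79994067), with 409, 394 and 317 bp in +Asn and 2071, 2090 and 2008 bp in -Asn+Fe (5.54-fold, log2 2.47 ± 0.10 SE, limma adjusted p = 4.77e-07). Its RNA was below 0.25 CPM in every +Asn library and 8.92, 9.78 and 7.61 CPM in -Asn+Fe. CD69, an early activation antigen of lymphocytes, had 519, 727 and 219 bp against 2633, 2282 and 2087 bp (5.33-fold, adjusted p = 0.00201), and its upstream edge moved outward by 1933 bp. The merged region ends at chr12:9761026 and CD69 starts at 9760901 on the - strand, so most of that shift lay inside the gene. UNC5B, a netrin receptor, had 467, 419 and 383 bp against 1687, 1640 and 1822 bp (4.07-fold, adjusted p = 1.93e-05), and its RNA 0.803, 0.892 and 1.35 against 76.0, 75.7 and 80.2 CPM. In all 3 the lowest -Asn+Fe library was above the highest +Asn library, as the rule that named them by size required. The remaining widened regions named by size, apart from SLC7A11, were at the non-coding genes ENSG00000287557 with ENSG00000227706, ENSG00000268355, ENSG00000273980 and POU2F2-AS1, 3.63- to 5.40-fold wider. ENSG00000273980 had unequal +Asn libraries (1150, 248 and 219 bp), and its call was lost in 7 of 10 alternatives.

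SLC7A11, the cystine-glutamate exchanger, is a target of both ATF4 and NRF2. Its region (chr4:138239046-138243103) covered 1258, 877 and 494 bp in +Asn, 3663, 3968 and 3630 bp in -Asn and 3895, 3950 and 3884 bp in -Asn+Fe. The -Asn+Fe libraries were all above 3.8 kb and the +Asn libraries all below 1.3 kb, a 4.79-fold difference (log2 2.26 ± 0.26 SE, limma adjusted p = 0.000532). The added length lay on the gene side, where the edge moved by 2832 bp (adjusted p = 6.52e-05), against 31 bp upstream. SLC7A11 RNA went from 17.5, 18.9 and 15.7 CPM to 802, 680 and 743 CPM (log2 5.41, edgeR adjusted p = 1.37e-12).

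Genes of the amino acid response governed by ATF4 widened more often than promoters in general. Of 39 such genes, 29 had a peak region at their start and 28 regions were tested; 15 were wider and 2 narrower, against 9.94% wider and 1.86% narrower among all tested promoter regions. The median log2 width change of the list was 0.31 (0.25 after centring), against 0.07 for all regions and 0.05 for promoter regions. RNA of 34 of 35 tested members was higher and of 1 lower. WARS1, the tryptophanyl-tRNA synthetase, covered 1923, 2016 and 1753 bp in +Asn and 4108, 3943 and 3954 bp in -Asn+Fe (2.11-fold, adjusted p = 5.08e-06); its region also holds the start of WDR25 on the other strand. CHAC1, a glutathione-degrading enzyme, covered 1316, 1463 and 1355 bp against 2925, 2677 and 3010 bp (2.08-fold, adjusted p = 5.08e-06). PPP1R15A, the stress-induced subunit that returns eIF2α to its unphosphorylated state, covered 2260, 2241 and 1869 bp against 4794, 4776 and 4723 bp (2.25-fold, adjusted p = 6.00e-06). In each of these 3 regions the media lay apart by more than 1 kb. At PPP1R15A the 2 or 3 separate peaks of the +Asn libraries were 1 peak in every -Asn+Fe library, and its outer edges moved by 685.7 bp downstream (adjusted p = 0.0601) and 17.3 bp upstream. The 2 narrower regions were at SLC3A2 (log2 -0.26) and PSPH (-0.31), the partner chain of SLC7A11 and the last enzyme of serine synthesis, while their RNA rose by 2.55 and 1.63 on the log2 scale. The narrower call of SLC3A2 is at its outer start alone: both of its other RefSeq starts lie at another region, which was wider (log2 0.84). The list had 1 narrower region when any 1 library other than -Asn+Fe library 1 was left out.

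ATF4 itself did not pass the test, with 4588, 4548 and 4563 bp in +Asn and 4585, 4363 and 4590 bp in -Asn+Fe (adjusted p = 0.78), while its RNA rose 1.90-fold. Its control in starvation is known to be largely translational. For some genes the outer end of the gene model is not the start in use, and the starts of the RefSeq promoter table, an alternative chosen after the data were seen, gave a further region. With it DDIT3, the factor CHOP, had 1549, 1567 and 1584 bp in +Asn and 2399, 2310 and 2337 bp in -Asn+Fe (1.5-fold, adjusted p = 0.000606), whereas the region at its outer start did not pass the test (0.973-fold, adjusted p = 0.746). TRIB3, a pseudokinase induced by ATF4 and CHOP, had 1571, 1714 and 1595 bp against 2623, 2298 and 2270 bp (1.47-fold, adjusted p = 0.000427). GDF15, a stress cytokine, had 0, 268 and 0 bp against 2277, 2239 and 2290 bp, and its RNA was at most 0.0288 CPM in +Asn and 18.3, 20.3 and 20.4 CPM in -Asn+Fe. With RefSeq starts the list had 16 wider and 1 narrower of 26 regions.

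**Figure D3:**
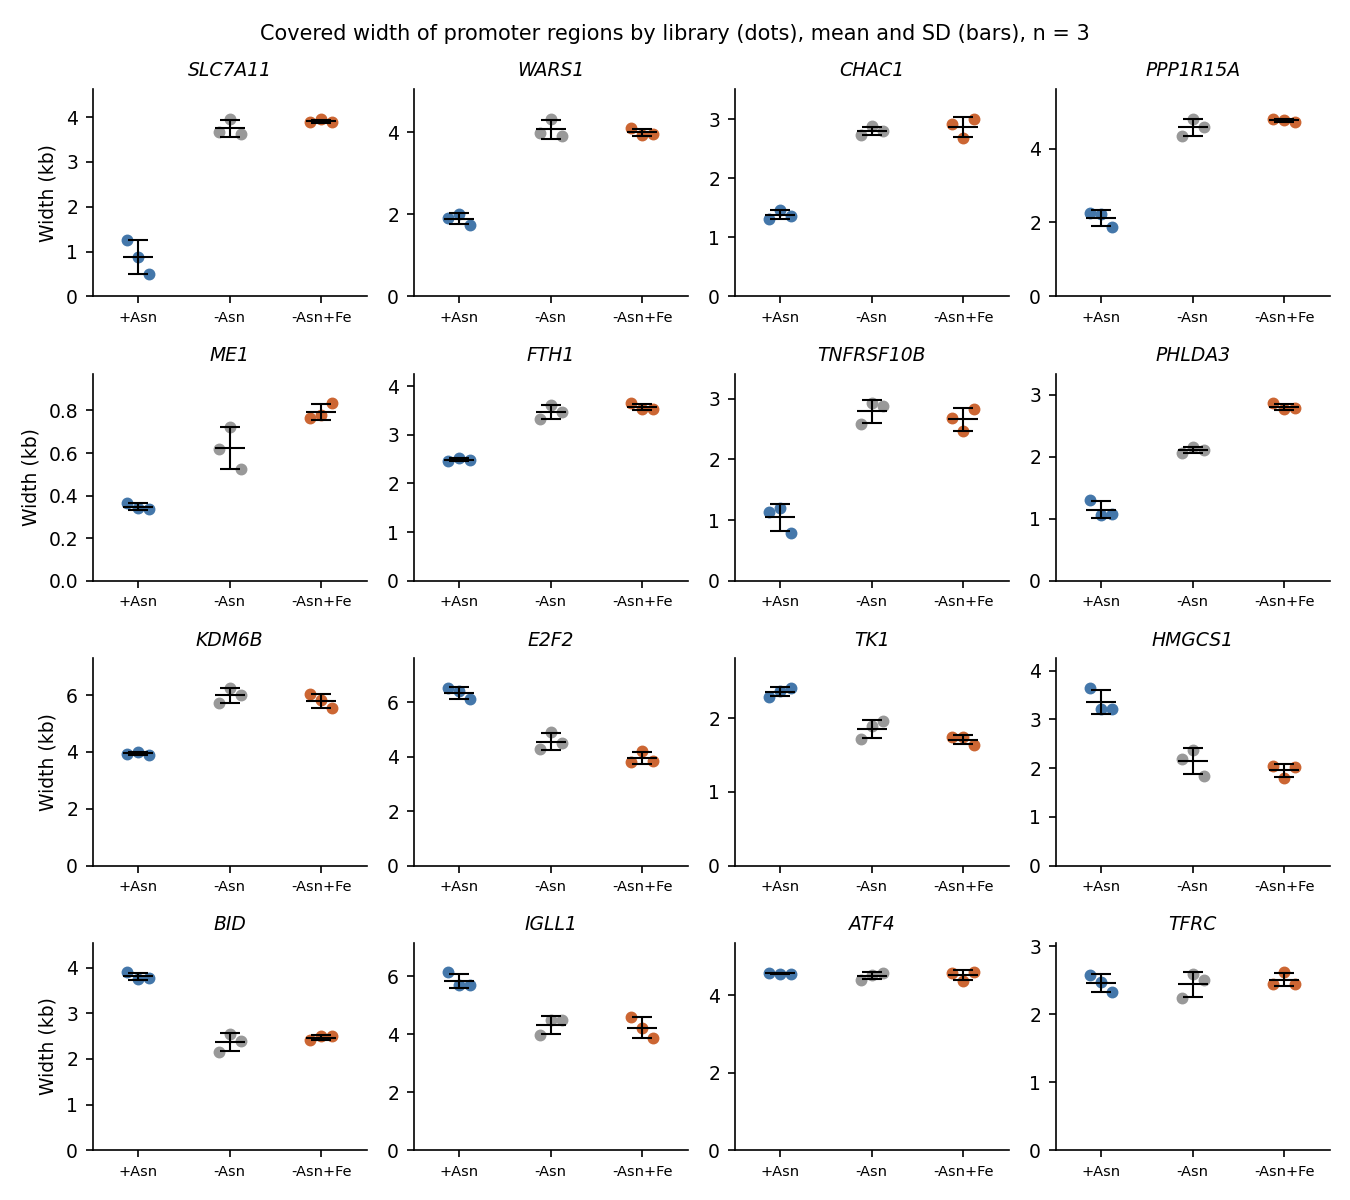
Covered width in kb (y axis, from 0) of 16 promoter regions in each of the 9 H3K4me3 libraries (dots), with the mean and SD of 3 libraries per medium (bars). Top and middle rows show regions called wider in -Asn+Fe, then E2F2, TK1, HMGCS1, BID and IGLL1, called narrower, and ATF4 and TFRC, not called.

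Among targets of NRF2, the factor that responds to oxidants, and genes that handle iron, both lists had a larger share of wider regions than all tested promoter regions (9.94%). FTH1 and FTL are in both lists and were wider, so their regions count in both shares. For NRF2 targets, 6 of 21 tested regions were wider (28.6%) and 0 narrower, and the list's median log2 change was 0.06, -0.01 after centring. Without -Asn+Fe library 1, 3 were wider. RNA of the NRF2 targets was higher in 13 of 25 tested genes and lower in 7, against 32.9% and 31.9% of all tested genes. ME1, malic enzyme, had the largest relative gain after SLC7A11, from 366, 341 and 339 bp to 763, 779 and 834 bp (2.27-fold, adjusted p = 0.00083), with -Asn libraries between, at 620, 722 and 526 bp. Its RNA went from 1.20, 1.09 and 0.532 CPM to 12.3, 11.8 and 12.4 CPM. NQO1, a quinone reductase, had 1437, 1476 and 1335 bp against 1888, 1737 and 1808 bp (1.28-fold, adjusted p = 0.0169), a call that was lost without +Asn library 3 (adjusted p = 0.0633) and without -Asn+Fe libraries 1 (0.0656) or 3 (0.0515). TXN widened by 0.17 on the log2 scale while its RNA fell. TXNRD1, the thioredoxin reductase, gained a region of 376, 279 and 224 bp. HMOX1, which degrades haem and releases its iron, had no peak in +Asn, 0, 386 and 0 bp in -Asn and 376, 255 and 0 bp in -Asn+Fe. Its RNA nevertheless went from at most 0.0280 CPM in +Asn to 12.1, 12.9 and 16.4 CPM in -Asn+Fe.

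The ferritin subunits, which store iron, both widened. The FTH1 region (chr11:61965154-61968835) covered 2471, 2517 and 2475 bp in +Asn, 3331, 3614 and 3459 bp in -Asn and 3647, 3535 and 3522 bp in -Asn+Fe. The -Asn+Fe libraries were above 3.5 kb and the +Asn libraries near 2.5 kb (1.43-fold, log2 0.52 ± 0.04 SE, adjusted p = 3.77e-05). FTL had 1883, 2237 and 2004 bp against 3223, 2861 and 3045 bp (1.49-fold, adjusted p = 0.0128; 0.0529 without -Asn+Fe library 1, and 0.174 when gaps between peaks were counted in the width). RNA of FTH1 was 3.23-fold and of FTL 3.50-fold higher. Over the list of iron genes, however, RNA was higher in 5 of 21 tested genes and lower in 11, where 32.9% of all tested genes were higher and 31.9% lower. Of 18 tested regions of iron genes, 4 were wider (22.2%) and 0 narrower, the others being FBXL5, a sensor of iron, and SLC39A14, an importer (log2 0.31 and 0.42), and the list's median was 0.08, 0.01 after centring. With RefSeq starts 1 of 16 tested regions was wider. Those starts covered 19 of the 24 genes, and FTH1 had no region at one, so the same genes were not retested. TFRC, the transferrin receptor, did not pass the width test (2573, 2471 and 2317 bp against 2447, 2611 and 2449 bp, adjusted p = 0.794), and its RNA fell from 612, 583 and 601 CPM to 41.9, 45.8 and 45.2 CPM. The messages of ferritin and of the transferrin receptor are known to be controlled by iron after transcription as well.

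Targets of p53 widened about as often as the ATF4 list. Of 26 tested regions, 14 were wider (53.85%, against 9.94% of all tested promoter regions) and 0 narrower, with a median log2 change of 0.23 (0.17 after centring). RNA of 23 of 27 tested genes was higher and of 0 lower. TNFRSF10B, the death receptor DR5, had 1140, 1208 and 789 bp against 2680, 2466 and 2828 bp (2.58-fold, adjusted p = 0.00017), in a region shared with the non-coding gene ENSG00000246130. PHLDA3, an inhibitor of AKT, had 1308, 1062 and 1073 bp in +Asn, 2060, 2166 and 2108 bp in -Asn and 2865, 2778 and 2782 bp in -Asn+Fe (2.46-fold over +Asn, adjusted p = 5.12e-06). Its 3 media did not overlap, and the difference from -Asn was among those that limma did not call. SESN2 (1.86-fold) and ZMAT3 (1.73-fold) followed. CDKN1A, the inhibitor of cyclin-dependent kinases, had no region at its outer start but, at its RefSeq start, 2875, 3049 and 2855 bp against 4591, 4227 and 4644 bp (1.53-fold, adjusted p = 3.17e-05).

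Apoptosis regulators, whose wider members TNFRSF10B, BBC3, BAX, FAS and PMAIP1 are also in the p53 list, had 9 of 23 tested regions wider (39.1%, against 9.94% of all tested promoter regions) and 1 narrower, with a median log2 change of 0.15 (0.08 after centring). Without +Asn library 3 the wider number was 3, and without -Asn+Fe library 1 it was 4. BBC3, which encodes PUMA, had 4369, 4409 and 4297 bp against 6237, 6483 and 6404 bp (1.46-fold, adjusted p = 6.28e-06). Its upstream edge moved outward by 1034 bp and its downstream edge by 1 bp, and its 2 peaks in each +Asn library were 1 in 2 of the -Asn+Fe libraries. The merged region ends at chr19:47232770 and BBC3 starts at 47232766 on the - strand, so nearly all of the upstream shift lay inside the gene. The narrower region was that of BID, an activator that caspase 8 cleaves, with 3893, 3757 and 3773 bp against 2409, 2498 and 2492 bp (0.648-fold, adjusted p = 9.92e-05). The shift of its downstream edge was -1569 bp, and its RNA fell from 95.3, 98.4 and 96.8 CPM to 25.9, 29.0 and 24.3 CPM.

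Genes of the unfolded protein response had 7 of 22 tested regions wider (31.8%, against 9.94% of all tested promoter regions) and 0 narrower (median log2 0.13, 0.06 after centring). The wider number was 4 after centring or without +Asn library 2 or -Asn+Fe libraries 2 or 3, and 2 without +Asn library 3. HERPUD1 led them, with 2232, 2412 and 2454 bp against 4254, 3863 and 3928 bp (1.70-fold, adjusted p = 1.18e-05). Its downstream edge moved by 1631 bp and its upstream edge by 17.7 bp. ERN1, the sensor IRE1α, was 1.36-fold wider (adjusted p = 0.0407) and SEL1L, an adaptor of endoplasmic reticulum degradation, 1.28-fold (adjusted p = 0.0227), calls lost in 8 and 5 of 10 alternatives. NF-κB and immediate early genes had 13 of 28 wider (46.4%, against 9.94% of all tested promoter regions) and 0 narrower (median 0.16, 0.09 after centring). The wider number was 7 after centring and 5 to 10 when 1 library was left out, with 5 without -Asn+Fe library 1, 7 without +Asn library 3, and 8 without +Asn library 1 or -Asn+Fe library 3. FOSL1, a subunit of AP-1, had 813, 793 and 799 bp against 1839, 1554 and 1796 bp (2.15-fold, adjusted p = 1.12e-05), and its RNA 0.187, 0.605 and 0.168 against 2.99, 3.73 and 4.0 CPM. JUN, another AP-1 subunit, was 1.23-fold wider (adjusted p = 0.01).

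S-phase genes and targets of E2F, which drives the entry into DNA replication, lost much RNA but little width. RNA was lower in 47 of 47 tested genes, while 6 of 44 tested regions were narrower and 0 wider, against 1.86% and 9.94% of all tested promoter regions. The median log2 width was -0.07 (-0.14 after centring). The narrower number was 18 after centring, 4 without +Asn library 1, and 3 when any other of the 6 libraries was left out. E2F2, an activating E2F, had 6529, 6398 and 6114 bp in +Asn and 3804, 4223 and 3824 bp in -Asn+Fe (0.622-fold, adjusted p = 6.37e-05). Its region held 1, 1 and 4 peaks in the +Asn libraries and 3, 2 and 3 in the -Asn+Fe libraries, and with the gaps counted in the width the call was lost (log2 -0.17, adjusted p = 0.425). E2F2 RNA was 0.187, 0.374 and 0.280 CPM in +Asn and 0.0886, 0 and 0 in -Asn+Fe, too low to be tested. TK1, thymidine kinase, had 2295, 2372 and 2416 bp against 1747, 1750 and 1644 bp (0.726-fold, adjusted p = 0.000672), and its RNA fell by 4.12 on the log2 scale. MCM4, a subunit of the replicative helicase that shares its region with PRKDC, had 3886, 3807 and 3900 bp against 3548, 3446 and 3270 bp (0.885-fold, adjusted p = 0.0292, lost in 6 of 10 alternatives), although its RNA fell from 898, 884 and 916 CPM to 64.5, 67.6 and 62.9 CPM. The CCNE2 region, that of a cyclin of the G1/S step, did not pass (0.904-fold, adjusted p = 0.0703). Of 41 tested regions of G2 and mitosis genes, 1 was wider (CDC20, lost in 6 of 10 alternatives) and 1 narrower (MAD2L1), against 9.94% and 1.86% of all tested promoter regions. RNA of 43 of 44 genes was lower, and the median log2 width was 0.04, -0.03 after centring, when 4 were narrower.

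Among cholesterol genes, 4 of 22 tested regions were narrower, against 1.86% of all tested promoter regions, with a median log2 width of -0.11 (-0.18 after centring, when 12 were narrower). HMGCS1, which makes the precursor of mevalonate, had 3644, 3206 and 3219 bp against 2047, 1800 and 2018 bp, the largest relative loss among named coding promoters (0.583-fold, log2 -0.78 ± 0.09 SE, adjusted p = 0.0005). Every -Asn+Fe library was below every +Asn library, as the rule that named regions by size required. The edge on the gene side shifted by -1564 bp and the upstream edge by 8.33 bp, and HMGCS1 RNA fell from 394, 406 and 409 CPM to 175, 166 and 169 CPM. MSMO1, IDI1 and CYP51A1, later enzymes of the pathway, were 0.705-, 0.822- and 0.854-fold as wide. The MSMO1 call was lost when gaps were counted (adjusted p = 0.544) and without +Asn libraries 1, 2 or 3 or -Asn+Fe libraries 2 or 3 (adjusted p from 0.054 to 0.069). Other narrowed promoters named by size were MEX3D, an RNA-binding protein (0.603-fold), CD48, a lymphocyte adhesion protein (0.611-fold), KHDC1 (0.628-fold), ANGPTL2, an angiopoietin-like protein (0.637-fold), and the non-coding gene ENSG00000234940 (0.534-fold, a call lost in 6 of 10 alternatives).

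Heat shock chaperones had 1 of 20 regions narrower and 0 wider, against 1.86% and 9.94% of all tested promoter regions. Their median was -0.04 (-0.10 after centring, when 6 were narrower), while RNA of 13 of 16 was lower. The narrower region holds the start of HSPE1 and lies over HSPD1, the mitochondrial chaperonins, with 5463, 5925 and 5779 bp against 4444, 4262 and 4497 bp (0.769-fold, adjusted p = 0.000916). HSPA8 (0.909-fold) and HSPH1 (0.92-fold) did not pass (adjusted p = 0.125 and 0.209). In ribosome biogenesis 2 of 34 regions were narrower and 1 wider, against 1.86% and 9.94% of all tested promoter regions. The narrower were POLR1E and TAF1D and the wider WDR12, calls lost in 5, 6 and 9 of 10 alternatives (list median -0.04, -0.11 after centring, when 10 were narrower and 0 wider). With RefSeq starts, which covered 30 of the 35 genes, 0 of 30 were called in either direction. With the outer starts the narrower number was 0 without +Asn libraries 1 or 2 or -Asn+Fe library 3, and 1 without +Asn library 3 or -Asn+Fe library 2.

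Among JmjC demethylases, of which the KDM5 enzymes act on H3K4me3 and others on other lysines, 4 of 18 tested regions were wider (22.2%, against 9.94% of all tested promoter regions) and 1, RIOX1, narrower (median 0.08, 0.01 after centring). With RefSeq starts, which covered 19 of the 23 genes, 6 of 21 were wider and 0 narrower. KDM5B, which removes H3K4me3, had 778, 1030 and 852 bp in +Asn, 1287, 1441 and 1570 bp in -Asn and 1392, 1428 and 1326 bp in -Asn+Fe (1.57-fold over +Asn, adjusted p = 0.004), and its RNA went from 1.04, 0.720 and 0.924 CPM to 15.5, 13.9 and 14.8 CPM. KDM6B, which removes methyl groups from H3K27, had 3925, 4015 and 3900 bp against 6030, 5843 and 5545 bp (1.47-fold, adjusted p = 4.82e-05) and RNA of 34.2, 35.6 and 35.8 against 303, 306 and 318 CPM. Neither group of libraries overlapped the other at either gene. KDM5C (log2 0.24) and KDM4A (0.17) were also wider. Of 22 regions of H3K4 methyltransferase complex genes limma called 0 wider and 0 narrower (median 0.01, -0.06 after centring, when 4 were narrower). KMT2A, which is fused in these cells, covered 4922, 4711 and 4960 bp against 5008, 4766 and 4936 bp (adjusted p = 0.867), and SETD7, in the same list, gained a region of 653.3 ± 91.1 bp.

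Of 19 regions of targets of the KMT2A fusion, 3 were wider (15.8%, against 9.94% of all tested promoter regions) and 0 narrower (median 0.03, -0.04 after centring, when 3 were narrower). They were LMO2, a haematopoietic transcription cofactor, LGALS1, galectin 1, and SENP6, a SUMO protease whose call was lost in 9 of 10 alternatives. The LMO2 region covered 624, 502 and 693 bp against 1657, 1492 and 1950 bp (2.81-fold, adjusted p = 0.000114), and LGALS1 905, 1563 and 1225 bp against 2841, 2476 and 2654 bp (2.21-fold, adjusted p = 0.002; 0.302 with gaps counted). Of 22 precursor B-cell regions, 2 were narrower and 1 wider (4.55%), against 1.86% and 9.94% of all tested promoter regions. The list's median was 0.06 (-0.01 after centring, when 4 were narrower and 0 wider). The narrower number was 1 without +Asn libraries 1 or 2 or -Asn+Fe libraries 2 or 3. IGLL1, part of the surrogate light chain of the pre-B receptor, had 6134, 5701 and 5711 bp against 4589, 4215 and 3878 bp (0.722-fold, adjusted p = 0.00185), and EBF1, a B-lineage factor, was 0.9-fold as wide (adjusted p = 0.0187, lost in 6 of 10 alternatives). The wider member was CD79B, part of the B-cell receptor (1.11-fold, adjusted p = 0.0335, lost in 8 of 10 alternatives). RAG2, of the recombinase, did not pass (0.883-fold, adjusted p = 0.209).

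At promoters with starts on 1 strand only, the 2 edges of a region were followed separately in 6981 regions. The downstream edge, on the side of the gene body, moved outward in 403 (5.77%) and inward in 190 (2.72%). The upstream edge moved outward in 445 (6.37%) and inward in 37 (0.53%). After centring, 177 upstream edges were outward and 142 inward, and 315 downstream edges were inward. Leaving out any 1 of the 6 libraries lowered the calls, to 188 to 295 downstream edges outward, 86 to 121 inward, 191 to 291 upstream edges outward and 19 to 34 inward. The fall was over 1.5 times in each case except the downstream outward number without -Asn+Fe library 2 (295) and the upstream inward number without -Asn+Fe library 1 (34) or 3 (25). Narrowing was chiefly on the side of the gene body. In the 125 narrower regions the downstream edge moved by a median of -346.7 bp and the upstream edge by -60 bp, and the downstream shift was the larger in 100 of them, against 3860 of all 6981 (55.3%). In the 720 wider regions the medians were 195.7 and 142.8 bp, and the downstream shift was the larger in 434 (60.3%). The edges enter the widths, so these are descriptions of the regions called. The upstream edge had the larger shift at ENSG00000262172, CD69, ENSG00000268355 and BBC3, and the downstream edge at SLC7A11, HERPUD1, PHLDA3, CHAC1 and UNC5B. At ENSG00000262172, CD69, ENSG00000268355 and BBC3 the shift exceeded the reach of the merged region upstream of the start. Their mean upstream edge in +Asn thus lay inside the gene, and part or all of the shift was there.

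**Figure D4:**
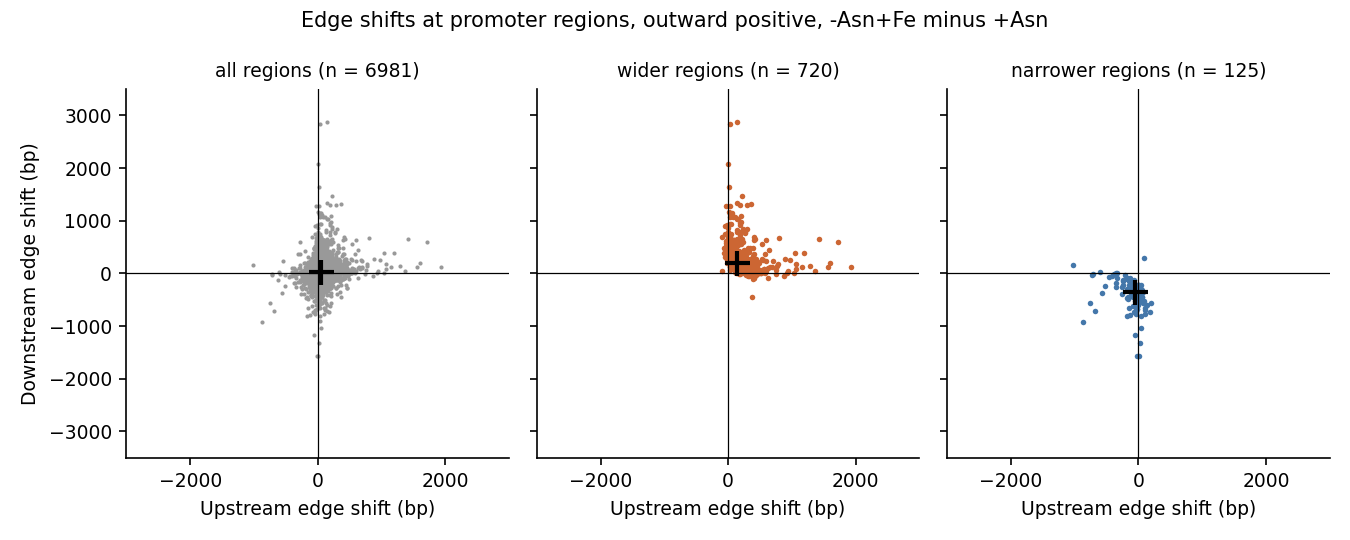
Shift in bp of the upstream edge (x axis) and the downstream edge (y axis) of promoter regions, -Asn+Fe minus +Asn, outward positive, for all 6981 regions, 720 wider and 125 narrower, with the medians as black crosses. Narrower regions spread down along the y axis, with medians of -60 bp upstream and -346.7 bp downstream.

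Width moved with RNA across promoters. Each region was paired with a single tested coding gene, the one with the highest mean CPM where several started there. Over 8766 promoter regions with a tested coding gene, the log2 change in width and the log2 change in RNA had Pearson's r = 0.497 and Spearman's rho = 0.445. This is a description across regions, which share the libraries and are not independent replicates. Of the 249 regions whose gene rose at least 4-fold, 139 were wider (55.8%), and of the 482 whose gene rose 2- to 4-fold, 167 were wider (34.6%), against 9.31% of the 8766. Of the 229 whose gene fell at least 4-fold, 26 were narrower (11.4%) and 2 wider, against 1.87% narrower of the 8766. Seen from the width, 554 of the 816 wider promoters had a gene called higher and 120 a gene called lower, and 142 of the 164 narrower promoters had a gene called lower and 7 a gene called higher. Among all 8766, 26.8% of the genes were higher and 47.0% lower. Most promoters whose RNA changed kept a width that did not pass the test: 1791 of 2352 with a higher gene and 3855 of 4117 with a lower gene.

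**Figure D5:**
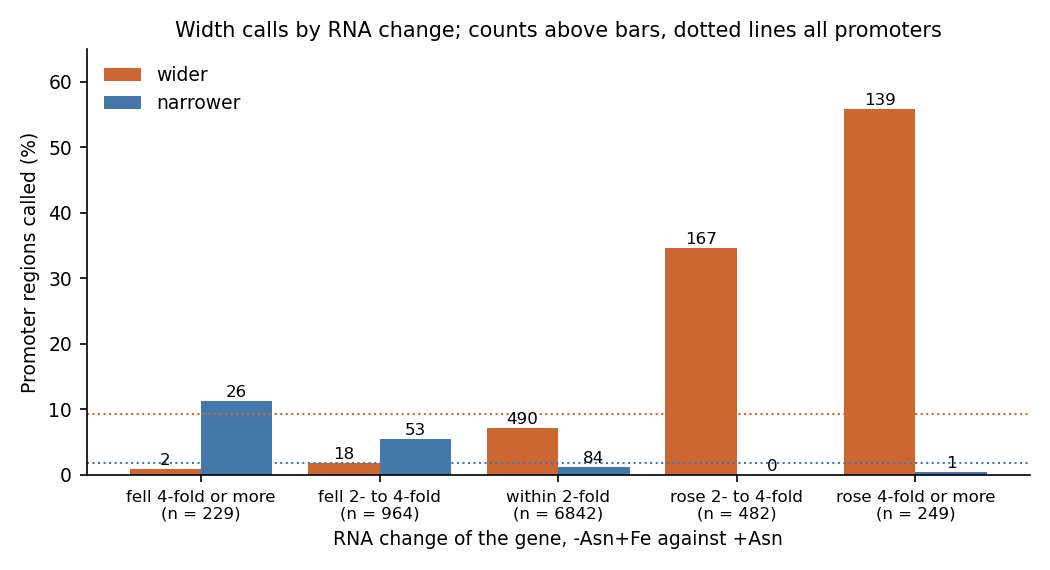
Share of promoter regions called wider (orange) or narrower (blue), in percent on the y axis, by the RNA change of their gene between -Asn+Fe and +Asn on the x axis, with the number called above each bar and the share over all 8766 regions as dotted lines. The share of wider regions was 0.873% where RNA fell at least 4-fold and 55.8% where it rose at least 4-fold.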

How the data were processed

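RNA was measured as raw counts by gene in the authors' deposited table (STAR 2.7.2a and Subread 1.6.5 on hg38, per the submitters' processing notes), with strand and multi-mapping settings unknown here. The deposited H3K4me3 table holds positions of the authors' MACS2 2.2.7.1 peaks (Bowtie2 2.4.4 and Picard 2.18.26, per the submitters' processing notes) in 19279 merged regions. It has 13 fields under 12 names, and since the fourth repeats the region, the last 9 were read as libraries.

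Promoter regions had a gene's outer 5′ end, from the count table, at most 1 kb away. Width (log2 of covered bp) and edges (bp) were tested with limma 3.58.1 (trend, robust) over 9 libraries in R 4.3.3. RNA was tested with edgeR 4.0.16 (TMM, filterByExpr, quasi-likelihood) on 17939 genes, in libraries of 29362707 to 42478518 counts. Calls used a Benjamini-Hochberg adjusted p under 0.05, and CPM used TMM. DESeq2 1.42.0 was an alternative. Both scripts were tested on simulated data. Alternatives and those added after the data were seen (RefSeq starts, list counts, RNA of gained genes) are in the closing section or beside their result.

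The comparison, the 461 genes of 16 lists and 4 sets of markers, and the tests were chosen with earlier results of these data known. Named regions were up to 8 promoters per direction with the largest width change (mean at least 1000 bp, groups apart), 6 gained and 6 lost regions each at promoters and elsewhere, up to 4 called members per list, the 8 widest, and 30 fixed genes. Of these, CNTN4 and JMY had no region. List members named for a call beyond these were chosen after their values were seen. A call within 1 of the lists is not reported here.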

Additional observations from a re-analysis of the deposited data

How the results depend on the processing

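Of 79 named regions, 666 of 790 values under an alternative stayed on the same side of the threshold, 119 were no longer called, 5 were newly called and 0 reversed a called direction; 18 further values of regions not called changed sign. Regions called and covered length stayed higher in -Asn+Fe, and wider calls outnumbered narrower ones, under every alternative run; with outer spans, 5 regions called with covered bp took the other sign. RNA lower outnumbered RNA higher without +Asn library 2 (5487 against 5434) or 3 (5478 against 5371) and without -Asn+Fe library 3 (5452 against 5426). Gained regions were 410 with peaks of at least 500 bp and 1225 when 2 of 3 libraries sufficed, and lost regions then 167. Centring on library medians gave 1050 narrower regions, 315 downstream edges inward, 177 upstream edges outward and 142 inward. Pearson's r was 0.49 with starts within 2 kb and 0.486 with outer spans; the cause was not tested. Leaving out 1 library gave differences of 1100 to 1758 regions and 1.42 to 2.51 Mb, 676 to 981 gained and 58 to 108 lost regions, 745 to 1291 wider and 120 to 200 narrower, downstream edges outward 188 to 295 and inward 86 to 121, upstream edges outward 191 to 291 and inward 19 to 34, and RNA calls of 5371 to 5772 higher and 5266 to 5565 lower. Fewer libraries were then required or tested. Of the 10 alternatives for each region, calls were lost in 9 for WDR12 and SENP6, 8 for CD79B and ERN1, 7 for RRM1 and ENSG00000273980, and 6 or fewer elsewhere.

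The replicate numbers are shared between the media, but same-numbered libraries did not deviate together (r = 0.0169, -0.0297 and 0.0145), and the labels name no shared culture. With the replicate block 1175 regions were wider and 171 narrower, downstream edges were outward in 259 and inward in 124, upstream edges outward in 261, with RNA higher in 5778 genes and RNA lower in 5602. H3K4me3 depth, the peak cut-off and how the inputs entered the calling are unknown here, so number and width of peaks cannot be told apart from depth or enrichment.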
